A study of Mus musculus with 2 samples.

Results

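The 39 *Hox* genes on the probe panel were described across 2 tissue sections of mouse brain that carried a breast tumor in the cerebellum. They were taken by name, as every gene whose symbol is Hox followed by a cluster letter (a, b, c or d) and a number, and they were 39 of 19465 probed genes: 11 of the *HoxA*, 10 of the *HoxB*, 9 of the *HoxC* and 9 of the *HoxD* cluster. Both sections belonged to the one group of the series, HP, and neither mouse was treated. HP denotes murine mammary tumor organoids that express a human HER2 transgene with the V777L change and the PIK3CA H1047R change, both switched on by a Cre-expressing adenovirus in the mammary gland of the donor mouse. The transgene is driven by an actin promoter behind a Lox-STOP-Lox element. The organoids carried luciferase and were injected into the cerebellum of 5-month-old syngeneic B6 mice. Both sections share the alleles and agents named here, as far as the labels and the study state them, and no tumor-free section was compared. Each section came from one mouse, labelled HP-F1 for section 1 and HP-B6 for section 2.

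*Hox* genes encode homeodomain transcription factors that lie in 4 clusters, and genes at the same place in different clusters are paralogs that share a number. In the embryo, genes with low numbers are used toward the head and genes with high numbers toward the tail. In the hindbrain the front limit of each gene follows the segments called rhombomeres. The cerebellum develops mainly from the first rhombomere, which lies in front of the limit of the *Hox* genes, whereas the pons and medulla develop from segments behind it and keep low-numbered *Hox* genes in adult neurons. Mammary epithelium and the fibroblasts of trunk organs also use *Hox* genes, as a record of their position in the body.

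Expression was measured in spots of a Visium array, each a patch of tissue in which several cells, or parts of cells, are read together. Spots were assigned to 3 regions by marker levels in CPM, UMIs scaled to the same total in every spot or library. Tumor spots had *Snap25* and *Pcp2* under 100 CPM and were rich in keratin or collagen transcripts, cerebellar cortex spots had *Pcp2*, a Purkinje cell gene, at 200 CPM or more, and other neural spots had *Snap25*, a gene of all neurons, at 500 CPM or more with *Pcp2* under 100 CPM. Section 1 gave 660 tumor, 771 cortex and 1314 other neural spots, and section 2 gave 767, 1090 and 1394. UMIs were summed per region and section into 6 libraries of 5966896 to 35773209 UMIs, and these sums were the units of every test. The 39 genes together held 14934 UMIs in the 6 libraries.

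The regions were set against markers not all of which had chosen them. All 660 tumor spots of section 1 were chosen by collagen and none by keratin. The summed level of 7 epithelial markers there was 42.6 CPM, while 7 fibroblast markers summed to 56073.2 CPM. In that section's cortex the epithelial markers summed to 39.2 CPM. That sum may include more signal from probes without their transcript, since the control genes described below had a median of 3.18 CPM in this cortex and 1.03 CPM in this tumor. In section 2 all 767 tumor spots were chosen by keratin, the epithelial markers summed to 9641.0 CPM and the fibroblast markers to 495 CPM. No marker of either list was at 0. The tumor spots of section 1 are therefore called so by the rule, and the label of a mammary epithelial tumor was not borne out by their transcripts. The other neural spots held the transcripts of neurons outside the cortex: 4 probed markers, *Slc17a6*, *Chat*, *Slc5a7* and *Slc6a5*, summed to 520 CPM in section 1 and 241 CPM in section 2, against 129 and 81.3 CPM in the cortex. A difference in a spot cannot tell more cells of a type from more RNA per cell.

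Because most *Hox* counts were low, each level was also set against 1213 probed control genes. These were olfactory, vomeronasal and taste receptor genes, which are not known to be expressed in these tissues. Whether they were silent here was not tested. The median level of these control genes was 1.03 CPM in tumor, 3.18 CPM in cortex and 1.23 CPM in other neural spots of section 1, and 0.602, 1.5 and 0.854 CPM in section 2. In CPM the controls thus stood highest in cortex in both sections, and a level in CPM there may include more of this signal. A level over the control median of 1 means a gene read no higher than the typical control. The number of probes per gene was not used here, so differences between genes within a library also include those between probes.

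**Figure D1:**
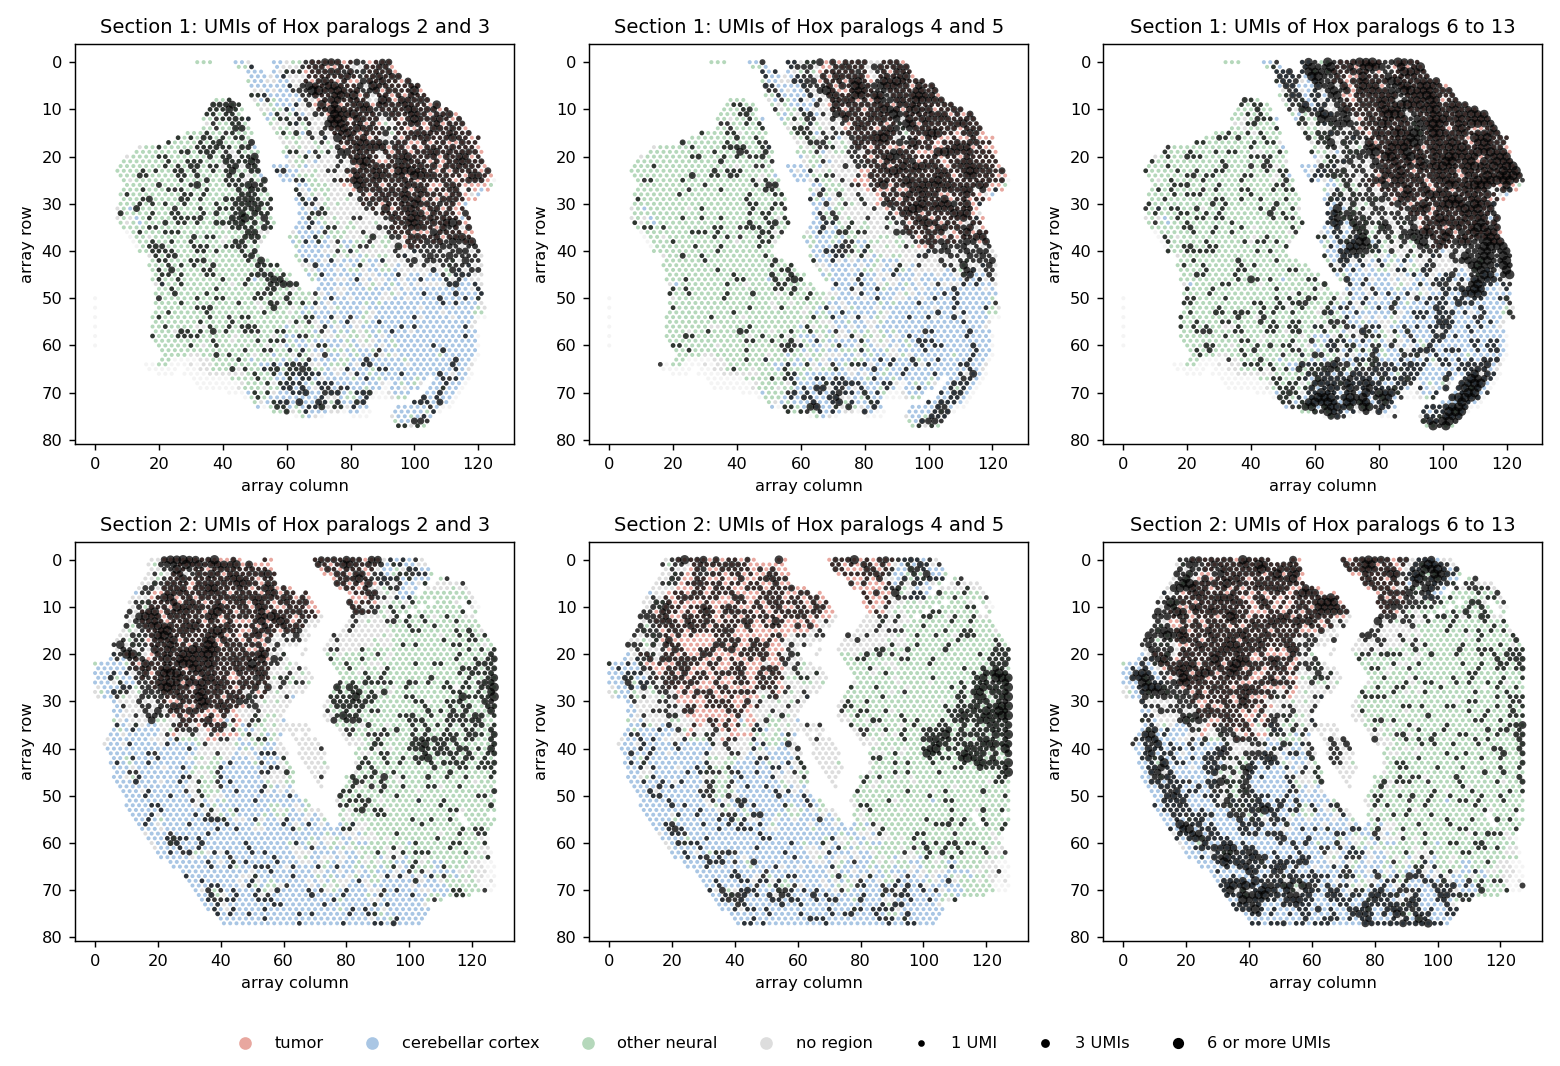
UMIs of *Hox* genes in each spot of both sections, by array column and row. Spot color gives the region and black points spots with at least 1 UMI of paralogs 2 and 3 (left), 4 and 5 (middle) or 6 to 13 (right), sized by UMI number. Paralogs 2 to 5 fill the tumors and patches of the other neural spots and are sparse in the cortex, whereas paralogs 6 to 13 are counted in all regions. The points are not scaled for the total UMIs of a spot. That total had a median of 56570 and 41228 in the tumors of sections 1 and 2. In the cortex it was 6765 and 11723.5, and in other neural spots 8010 and 8889.

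Taken as a group and set against the control mean, paralogs 2 to 5 were at a lower level in the cortex than in the tumor and the other neural spots. Summed over these 12 genes, the mean level per gene over the control mean was 5.14 in the tumor of section 1, with an exact Poisson interval at 95% of 4.94 to 5.34, and 8.25 (7.91 to 8.60) in that of section 2. In other neural spots it was 4.26 (3.98 to 4.55) and 7.50 (7.09 to 7.93). In the cortex it was 1.51 (1.36 to 1.67) and 1.58 (1.44 to 1.73), so that on this scale the cortex lay below both other regions in both sections. In section 1 that order rests on the division by the controls. Their mean there was 3.63 CPM in cortex, 1.15 CPM in tumor and 1.4 CPM in other neural spots. The summed CPM of the 12 genes lay close together in the regions of that section. In section 2 the summed CPM was also lowest in the cortex. Most of the sum in the tumor of section 2 came from *Hoxb2* (31.2 CPM), *Hoxb3* (13.6 CPM) and *Hoxb4* (12.1 CPM). Each other gene of the 12 was at 2.22 CPM or less there. Of those other genes, all but *Hoxb5* were lower in CPM in that tumor than in its cortex. The intervals cover counting error only, and the grouping of these paralogs was made with their levels known, so no test was run on it. Paralogs 6 to 13, 24 genes, were at 1.96 and 2.45 in the tumors, 1.61 and 1.72 in the cortex and 1.62 and 1.68 in other neural spots of sections 1 and 2.

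The genes of these groups varied among themselves, and their spreads overlapped. The highest level over the control median among the 6 libraries, divided by the lowest, had a median of 10.4 over the paralogs 2 to 5 and of 1.96 over the paralogs 6 to 13. It was above 3 for 10 of the 12 genes of paralogs 2 to 5, all but *Hoxc5* and *Hoxd4*. Among the paralogs 6 to 13 it was above 3 for 4 of 24, *Hoxa7*, *Hoxa10*, *Hoxb9* and *Hoxd8*, and among the 3 genes of paralog 1 for 0. The spread of *Hoxa7* (8.47) and of *Hoxb9* (5.02) was wider than that of *Hoxa3* (3.19) or *Hoxa5* (3.66). These counts describe the same levels that formed the grouping. The share of all probed genes or of the control genes with such a spread was not counted. The counts therefore do not set either group apart from other genes. Some levels also rest on few UMIs, such as 9 for *Hoxa10* and 10 for *Hoxa7* in other neural spots of section 1, so counting error adds to the spread.

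**Figure D2:**
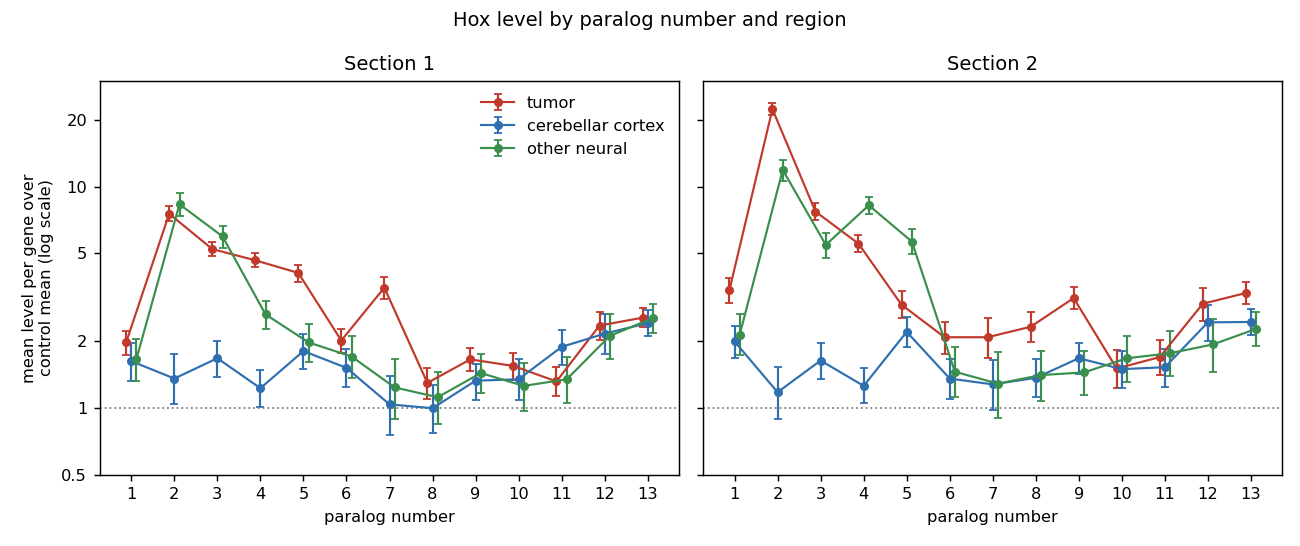
Mean *Hox* level per gene over the control mean (log scale) by paralog number, for tumor, cerebellar cortex and other neural spots of each section. Bars are exact Poisson intervals at 95% and the dotted line marks the control mean. Tumor and other neural spots stand above the cortex from paralog 2 to paralog 4 in both sections, and the 3 curves lie closer together from paralog 10 on.

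**Figure D3:**
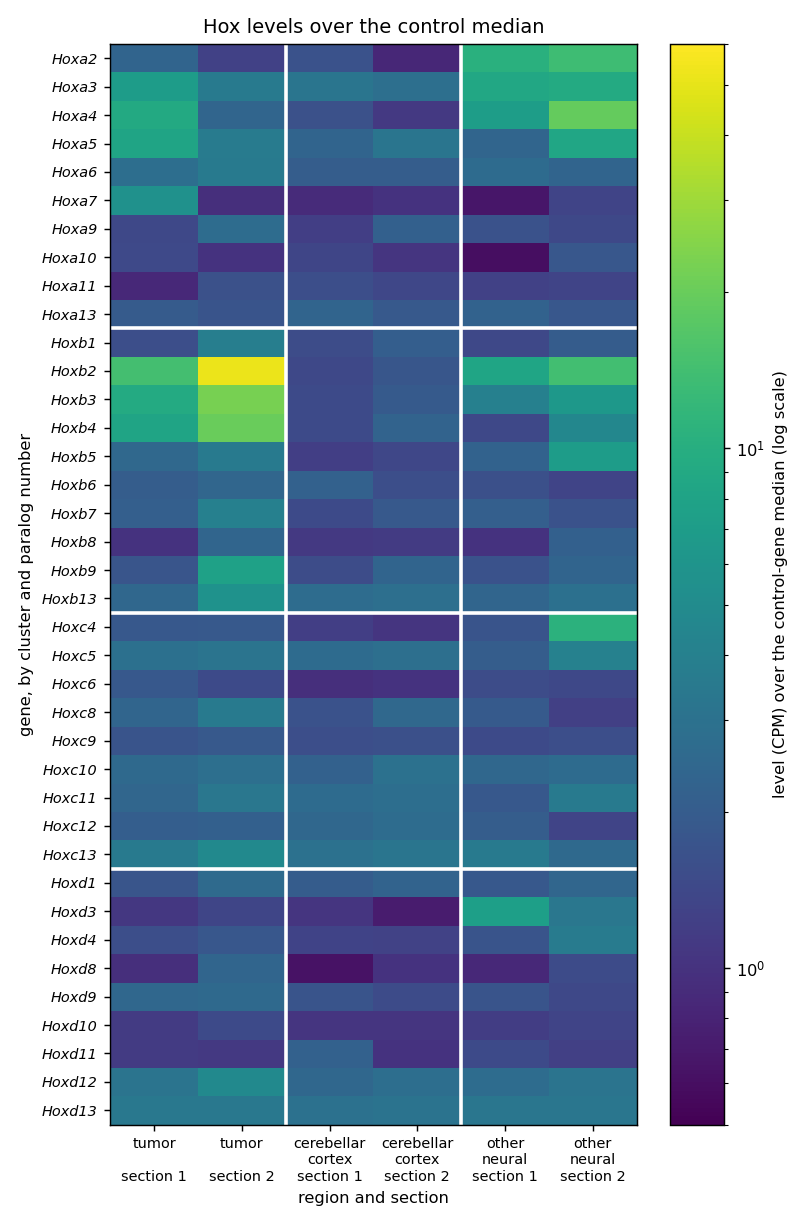
Level of *Hox* genes over the median of the control genes (color, log scale) in the 6 libraries. Rows are grouped by cluster from *HoxA* to *HoxD* and columns by region. *Hoxb2*, *Hoxb3* and *Hoxb4* are bright in both tumors, *Hoxa2* in both libraries of other neural spots, and no gene in the cortex.

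In both tumors, 3 genes at the front of the *HoxB* cluster stood above the other regions. *Hoxb2*, whose product helps pattern the fourth rhombomere and its neurons, was at 14.9 CPM (534 UMIs) in the tumor of section 1 and 31.2 CPM (986 UMIs) in that of section 2, against 4.52 and 2.71 CPM in the cortex and 10.4 and 11.9 CPM in other neural spots. *Hoxb3* was at 9.67 and 13.6 CPM in tumor, 4.69 and 2.93 CPM in cortex and 4.93 and 5.48 CPM in other neural spots. *Hoxb4*, a regulator also known from blood stem cells, was at 8.41 and 12.1 CPM in tumor, 4.69 and 3.43 CPM in cortex and 1.73 and 3.91 CPM in other neural spots. For each of these 3 genes both tumor libraries lay above all 4 other libraries.

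The level fell off at both ends of this stretch. Over the control median, *Hoxb1* was at 1.59 in the tumor of section 1 and 3.89 in that of section 2. *Hoxb2* was at 14.4 and 51.9, *Hoxb3* at 9.35 and 22.5 and *Hoxb4* at 8.14 and 20.1, and the step down came between *Hoxb4* and *Hoxb5*, which was at 2.51 and 3.58. *Hoxb6*, *Hoxb7* and *Hoxb8* were between 1 and 4. In the RefSeq annotation of GRCm38.p6, the build the files use as mm10, the *HoxB* genes lie on chromosome 11 between 96194316 and 96368254. *Hoxb3* (96307101 to 96347930) spans *Hoxb4* (96318267 to 96321638), and since the positions of the probes were not used here, their signals may not be independent.

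In edgeR's quasi-likelihood test with Benjamini-Hochberg adjustment over all 19083 genes tested, 3 *Hox* genes were higher in tumor than in cortex, where 13.3% of all genes tested were. *Hoxb2* was higher by 3.13 on the log2 scale (SE 0.49, adjusted p = 0.015), *Hoxb3* by 2.11 (SE 0.39, adjusted p = 0.022) and *Hoxb4* by 1.80 (SE 0.46, adjusted p = 0.045). The call of *Hoxb4* was lost in edgeR's test with library size only (adjusted p = 0.094), with stricter neural limits (adjusted p = 0.078) and without granule spots (adjusted p = 0.067). Section by section, log2 differences for *Hoxb2* were 2.18 and 3.64, for *Hoxb3* 1.53 and 2.37 and for *Hoxb4* 1.34 and 2.01. The share of *Hox* genes called higher, 3 of 39, was below that of all genes. The median log2 difference was -0.50 over the *Hox* genes and -0.13 over all genes tested. In this and every other test of tumor, the tumors of both sections stood as replicates. They were unlike in kind, chosen by collagen in section 1 and by keratin in section 2.

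Lower in tumor than in cortex were 2 *Hox* genes, where 15.2% of all genes tested were. *Hoxc12* fell by 1.27 on the log2 scale (SE 0.28, adjusted p = 0.032 in edgeR's test) and *Hoxa13* fell by 1.16 (SE 0.27, adjusted p = 0.037). Both genes act at the tail end of the body axis, in limb, gut and skin. *Hoxc12* was at 2.15 and 1.30 CPM in tumor and at 7.88 and 4.07 CPM in cortex. *Hoxa13* was at 2.04 and 1.04 CPM in tumor and at 7.37 and 2.86 CPM in cortex. The control genes moved the same way: their median log2 difference was -0.97, and 218 of 1140 tested were called lower. Over the control median, *Hoxa13* was at 1.97 and 1.74 in tumor and 2.32 and 1.90 in cortex, and *Hoxc12* at 2.08 and 2.16 in tumor and 2.47 and 2.71 in cortex. With the libraries scaled by their control-gene UMIs, a setting chosen after seeing the data, neither was called in edgeR's test (adjusted p = 0.68 for *Hoxa13* and 0.50 for *Hoxc12*).

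Under that scaling the median of all genes moved from -0.13 to 0.83, and 41% of all genes tested were higher in tumor than in cortex. The *Hox* genes called higher were then 6: *Hoxb2* by 4.11, *Hoxb3* by 3.09 and *Hoxb4* by 2.78 on the log2 scale, together with *Hoxb5* (1.21), *Hoxb9* (1.03) and *Hoxd8* (0.93), with adjusted p values from 5.5e-08 for *Hoxb2* to 0.044 for *Hoxb9*. The last 3 lay close to the shift of all genes. No *Hox* gene was called lower, where 8.04% of all genes were, and the median over the *Hox* genes became 0.47.

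The tumors of the 2 sections differed in the *HoxA* cluster. *Hoxa4* was at 9.42 CPM (interval 8.44 to 10.5) in section 1 and at 1.42 CPM (1.04 to 1.91) in section 2. *Hoxa7* was at 5.84 CPM (5.08 to 6.69) and 0.570 CPM (0.338 to 0.901), and it was below 3 CPM in each of the other 4 libraries. *Hoxa5*, a gene of lung and mammary development, was at 8.41 and 2.22 CPM, and *Hoxa3*, a gene of the pharyngeal arches, at 7.27 and 2.12 CPM. These 4 genes were all higher in section 1, and their counting intervals did not meet, although *Hoxa6*, which lies between *Hoxa5* and *Hoxa7*, was at 2.91 and 2.12 CPM. *Hoxa3* (chromosome 6, 52169059 to 52213067) spans *Hoxa4*, *Hoxa5* and *Hoxa6*.

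*Hoxb9*, a gene of the thoracic axis and the mammary gland, ran the other way, at 1.82 CPM (1.40 to 2.32) in section 1 and 4.62 CPM (3.90 to 5.44) in section 2. Over the control median the sections differed by more than 3-fold in 4 of 39 *Hox* genes in tumor. *Hoxa7* differed by 5.97-fold and *Hoxa4* by 3.84-fold toward section 1, and *Hoxb9* by 4.36-fold and *Hoxb2* by 3.60-fold toward section 2. Differences of more than 3-fold were not particular to the tumors: in the other neural spots 5 of 39 genes differed so (*Hoxa5*, *Hoxa10*, *Hoxb4*, *Hoxb5* and *Hoxc4*), and in the cortex 0 of 39. The share of all genes that differed so was not counted, so these numbers do not set the *Hox* genes apart from other genes. With 1 tumor of each kind there is no test of these differences. The differences between the tumors moved with the markers given above, fibroblast transcripts in section 1 and epithelial transcripts in section 2, whose part in the result was not tested.

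**Figure D4:**
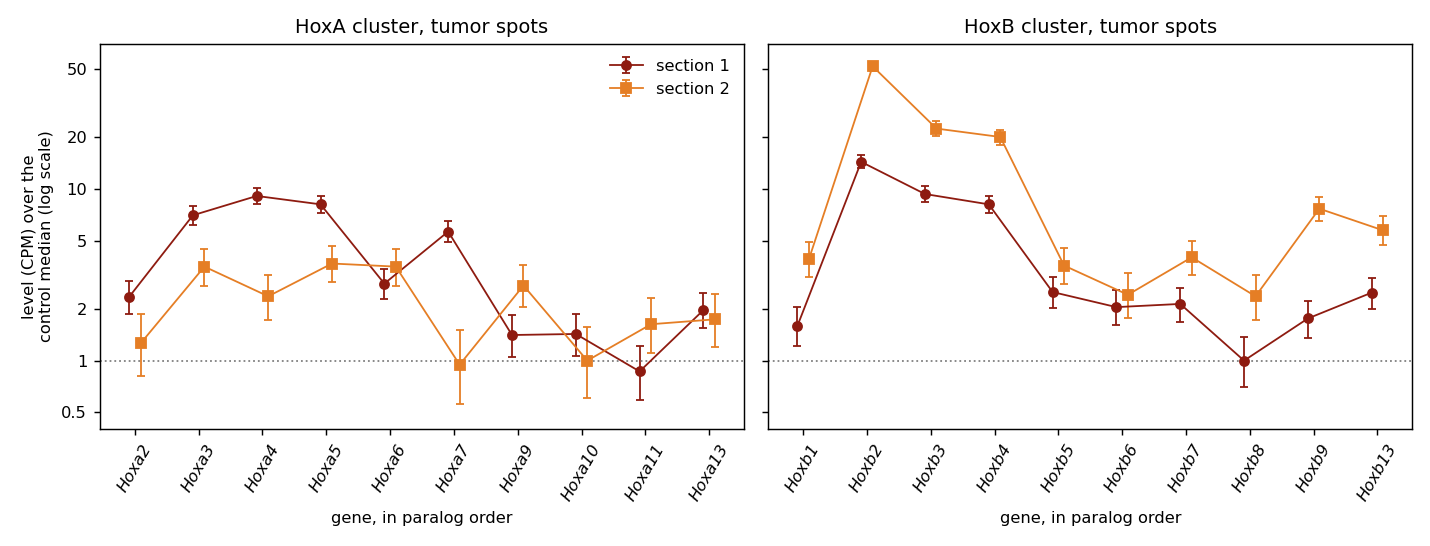
Level over the control median (log scale) of *HoxA* genes (left) and *HoxB* genes (right) in tumor spots, in paralog order, for section 1 (circles) and section 2 (squares). Bars are exact Poisson intervals at 95%, and the dotted line marks the control median. *Hoxb2*, *Hoxb3* and *Hoxb4* stand high in both sections, and *Hoxa3*, *Hoxa4*, *Hoxa5* and *Hoxa7* stand above 5 in section 1 and below it in section 2.

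Within each tumor the level changed little with depth. For paralogs 2 to 5, spots within 2 steps of the tumor's edge were at 5.20 times the control mean and deeper spots at 5.09 times in section 1. In section 2 the values were 7.78 (7.21 to 8.39) and 8.47 (8.05 to 8.90), and in both sections the intervals overlapped.

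In the other neural spots, the genes at the highest CPM differed between the sections. They were *Hoxa2*, *Hoxa3*, *Hoxb2* and *Hoxd3* in section 1 and *Hoxa4*, *Hoxb2*, *Hoxa2* and *Hoxc4* in section 2. *Hoxa2*, which sets the identity of the second rhombomere and second pharyngeal arch, was at 12.9 CPM in section 1 and 11.6 CPM in section 2, against 2.43 and 0.760 CPM in tumor and 5.36 and 1.29 CPM in cortex. *Hoxd3* was at 9.20 and 2.85 CPM, against 1.12 and 0.823 CPM in tumor and 3.35 and 1.07 CPM in cortex. *Hoxa3* was at 10.8 and 7.89 CPM and *Hoxa4* at 8.79 and 16.4 CPM. In CPM, both *Hoxa2* libraries of other neural spots lay above the 4 other libraries, whereas *Hoxd3* in section 2 lay below the cortex of section 1. Over the control median the order was the reverse, with *Hoxd3* at 3.33 in those other neural spots and 1.05 in that cortex.

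Set against the cortex, no gene of the whole table passed edgeR's quasi-likelihood test, in either direction (0% of 19083 genes), and 10 of 39 *Hox* genes had an unadjusted p under 0.05, 3 of them higher and 7 lower, where 15.5% of all genes tested had one. The lowest adjusted p of any gene was 0.309. DESeq2 called 1% of genes higher and 0.435% lower, and the *Hox* genes among them were *Hoxa2*, higher by 2.57 on the log2 scale (adjusted p = 0.0061), and *Hoxb2*, higher by 1.96 (adjusted p = 0.035). With the control-gene scaling, which called 18.4% of all genes higher and 0.225% lower and moved their median to 0.82, edgeR called 7 *Hox* genes higher: *Hoxa2* (3.32), *Hoxa3* (1.56), *Hoxa4* (3.36), *Hoxb2* (2.73), *Hoxb3* (1.56), *Hoxb5* (1.69) and *Hoxd3* (2.56). The share of *Hox* genes called, 7 of 39, was close to that of all genes. All 7 are paralogs 2 to 5, a group formed with these levels known, so their place in it is no further support for the grouping. The control genes themselves were lower in other neural spots than in cortex by a median of 0.79 on the log2 scale before that scaling, as the median over the *Hox* genes was -0.66.

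Tumor and other neural spots differed in which low-numbered genes they carried. In edgeR's test 1 *Hox* gene was higher in tumor, where 9.14% of all genes tested were, and 2 were lower, where 13.8% were. *Hoxb4* was higher by 2.06 on the log2 scale (SE 0.46, adjusted p = 0.036), a call lost with library size only (adjusted p = 0.058). *Hoxa2* fell by 3.04 (SE 0.57, adjusted p = 0.024) and *Hoxd3* fell by 2.27 (SE 0.40, adjusted p = 0.020). The direction was the same in each section for all 3 genes, at 2.20 and 1.63 for *Hoxb4*, -2.01 and -3.24 for *Hoxa2* and -2.43 and -1.29 for *Hoxd3*. Here the control genes differed less, by a median of -0.19 against 0.02 for all genes and 0.04 for the *Hox* genes. With the control-gene scaling *Hoxb2* (1.38) and *Hoxb3* (1.53) were called higher as well, where 14.7% of all genes were, and *Hoxa2* (-2.80) and *Hoxd3* (-2.09) were again called lower, where 13.7% were. The 7 epithelial markers summed to 15.4 CPM in the other neural spots of section 1 and 432 CPM in those of section 2, and their part in the result was not tested.

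The promoters of the 3 genes that separated tumor from other neural spots are shown because 2 of these genes were low and 1 high in tumor. Each window runs from 250 bases before to 50 bases after the RefSeq start on GRCm38.p6, and 22 of the 39 genes had one in the table used. Capitals mark matches, on either strand, to TGATNNAT, the kind of site bound by Hox proteins with Pbx, to TGACAG, the kind bound by Meis, or to TAATTA, a homeodomain core. *Hoxb4* lies at chr11:96318017-96318316 on the plus strand, *Hoxa2* at chr6:52164782-52165081 on the minus strand and *Hoxd3* at chr2:74711743-74712042 on the plus strand.
Hoxb4: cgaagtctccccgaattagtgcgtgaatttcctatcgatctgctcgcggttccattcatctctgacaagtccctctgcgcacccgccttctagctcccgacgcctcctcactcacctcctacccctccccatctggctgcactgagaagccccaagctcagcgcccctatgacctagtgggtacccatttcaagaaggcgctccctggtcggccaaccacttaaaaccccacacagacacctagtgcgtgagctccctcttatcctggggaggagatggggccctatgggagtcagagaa
Hoxa2: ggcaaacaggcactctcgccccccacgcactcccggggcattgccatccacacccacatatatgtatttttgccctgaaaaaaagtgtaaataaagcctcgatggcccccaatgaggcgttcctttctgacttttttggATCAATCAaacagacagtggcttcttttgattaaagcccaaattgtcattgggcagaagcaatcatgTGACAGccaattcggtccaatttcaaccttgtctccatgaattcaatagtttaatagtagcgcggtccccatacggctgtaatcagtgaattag
Hoxd3: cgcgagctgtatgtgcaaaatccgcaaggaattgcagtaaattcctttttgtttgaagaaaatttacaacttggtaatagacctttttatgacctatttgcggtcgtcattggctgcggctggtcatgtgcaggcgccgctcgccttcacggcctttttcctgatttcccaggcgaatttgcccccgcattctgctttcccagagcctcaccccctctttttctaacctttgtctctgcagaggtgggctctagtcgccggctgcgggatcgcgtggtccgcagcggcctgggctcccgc
The *Hoxa2* window held ATCAATCA, a match to TGATNNAT on the other strand that starts 111 bases before the start site, and TGACAG, which starts 44 bases before it. The windows of *Hoxb4* and *Hoxd3* held none of the 3. Among all 32851 promoters of this length in the table, 8.85% held TGATNNAT, 19.2% TGACAG and 5.29% TAATTA, and no 2 of these motifs overlapped in the windows shown. The GC content was 45.7% for *Hoxa2*, 54% for *Hoxd3* and 58% for *Hoxb4*.

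The other neural spots were not uniform. They were divided into 4 bands of about equal spot number by array column, a division made after the map was seen. The tumor lay toward high columns in section 1 and toward low columns in section 2. In section 2 the fourth band (328 spots, columns 115 to 127, at the edge of the array) held most paralog 4 and 5 transcripts. *Hoxa4* was at 3.25, 6.75, 21.0 and 47.2 CPM from the first to the fourth band. *Hoxc4* was at 2.29, 4.18, 9.13 and 28.3 CPM, and *Hoxb5* at 0.955, 0.321, 3.72 and 24.7 CPM. *Hoxa5* was at 3.44, 3.21, 8.11 and 18.2 CPM. For each of these 4 genes the counting interval of the fourth band lay above those of the other 3.

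*Hoxa2* did not follow this pattern, at 9.55, 11.6, 12.5 and 14.5 CPM with intervals that all overlapped, and *Hoxb2* stood apart in the last band alone, at 7.64, 6.75, 10.5 and 27.6 CPM. *Barhl1*, a homeobox gene of neurons that migrate from the rhombic lip, was also highest in that band, at 13.4, 14.5, 30.8 and 70.8 CPM. *Slc17a6*, the glutamate transporter of hindbrain neurons, was at 101, 131, 207 and 143 CPM. In section 1 *Hoxa4* peaked at 13.3 CPM and *Hoxc4* at 3.81 CPM, and *Hoxb5* at 5.71 CPM, so that no band there carried the pattern. *Barhl1* was nevertheless highest in the fourth band there too, at 30.5 CPM, where *Hoxa4* was at 4.08 CPM. Over all other neural spots the sections differed in *Hoxc4* (2.14 and 9.25 CPM), *Hoxb5* (2.79 and 6.05 CPM) and *Hoxa5* (2.96 and 7.25 CPM), each highest in the fourth band of section 2. In the other bands of section 2 *Hoxc4* was at 2.29 to 9.13 CPM and *Hoxa5* at 3.21 to 8.11 CPM. Both ranges lie above the section 1 levels, so for them the difference was not confined to that band. *Hoxb5* was at 0.321 to 3.72 CPM in those bands.

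In section 1 the gene with a patch of its own was *Hoxd3*. It was at 7.49, 3.15, 18.8 and 6.26 CPM in the 4 bands, and the third (326 spots, columns 42 to 54) lay above the other 3 beyond their counting intervals. *Chat*, the enzyme that makes acetylcholine, was at 5.35, 4.10, 17.4 and 3.54 CPM, with its highest value in the same band. *Hoxa2* was at 15.0, 15.1, 15.4 and 7.62 CPM there. In section 2 *Chat* and *Hoxd3* did not go together: *Chat* was highest in the second band, at 14.1 CPM, where *Hoxd3* was lowest, at 0.321 CPM. Each section is 1 cut through 1 brain, so a difference in place between the cuts and a difference between the mice cannot be told apart.

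**Figure D5:**
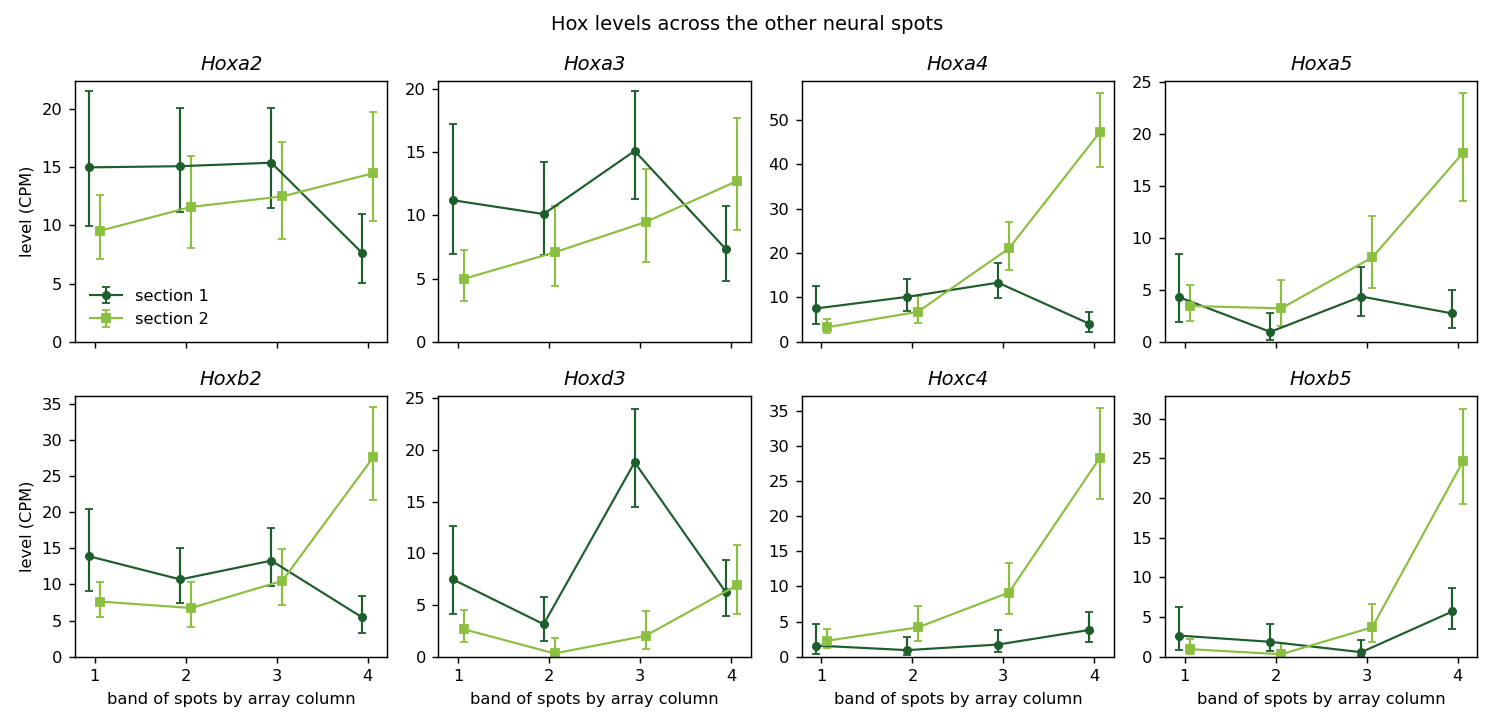
Level in CPM of 8 *Hox* genes across 4 bands of the other neural spots, ordered by array column, in section 1 (circles) and section 2 (squares). Bars are exact Poisson intervals at 95%. *Hoxa4*, *Hoxc4*, *Hoxa5* and *Hoxb5* climb to the fourth band of section 2, *Hoxd3* peaks in the third band of section 1, and *Hoxa2* is more even.

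Near the tumor the neural spots carried less signal of paralogs 2 to 5, set against the control mean. For these paralogs, neural spots within 10 steps of the tumor were at 1.48 (1.15 to 1.86) times the control mean in section 1 and 2.34 (1.95 to 2.78) times in section 2, and spots farther away at 5.13 (4.78 to 5.50) and 10.0 (9.45 to 10.6) times. The control mean itself was higher near the tumor, at 2.01 and 1.49 CPM, than farther away, at 1.27 and 0.852 CPM. Spots with granule cell genes (*Gabra6* and *Cbln3* at 200 CPM or more together) were at 1.24 and 1.61 times, and those without them at 5.02 and 10.1 times. Distance from the tumor and the part of the brain cannot be told apart here, since the tumor lay beside the cerebellar cortex.

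In the cerebellar cortex, no *Hox* gene was above 3.24 times the control median. The highest levels over the control median were those of *Hoxa3* (3.21 in section 1 and 2.90 in section 2), *Hoxa5* (2.32 and 3.24), *Hoxc13* (3 and 3.19) and *Hoxd13* (3 and 3.10). *Hoxa2*, *Hoxd3* and *Hoxa4* were at 1.68, 1.05 and 1.63 in section 1 and at 0.857, 0.714 and 1.10 in section 2. Even so, 9 of the 39 genes (23.1%) lay above the 95th percentile of the controls in the cortex of both sections, against 17 (43.6%) in the tumor and 13 (33.3%) in the other neural spots. The share of all probed genes above that limit was not counted, so whether these shares are high or low for the panel is not known.

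Set against the control median, most genes with high numbers varied little among the regions. *Hoxd13*, a gene of digits and genitalia, was at 3.43 and 3.37 times the control median in tumor, 3 and 3.10 times in cortex and 3.27 and 3.25 times in other neural spots. *Hoxc13*, a gene of hair and nail, was between 2.58 and 4.84 times in the 6 libraries, *Hoxc10* between 2.21 and 3 times and *Hoxc9* between 1.47 and 1.89 times. For *Hoxd13* the highest library on this scale was 1.14-fold over the lowest, the narrowest spread of all 39 genes. In CPM its levels were not flat, from 2.03 in the tumor of section 2 to 9.55 in the cortex of section 1. *Hoxa6*, *Hoxa9*, *Hoxa11*, *Hoxb6*, *Hoxb8*, *Hoxc6*, *Hoxc11*, *Hoxd9*, *Hoxd10*, *Hoxd11* and *Hoxd12* ranged over the 6 libraries from 0.865 times the control median, for *Hoxa11*, to 4.84 times, for *Hoxd12*. *Hoxb7* reached 4 times and *Hoxb13*, a gene of the tail bud, 5.74 times in the tumor of section 2, and *Hoxc8* 3.53 times. *Hoxa10* and *Hoxd8* passed a 3-fold spread at low levels, with ranges of 0.600 to 1.83 and 0.632 to 2.37 times.

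*Hoxb1* and *Hoxd1*, of a paralog group used early in the hindbrain of the embryo, stayed below the mean level of paralogs 2 to 4 in tumor and other neural spots of both sections. *Hoxb1* ranged from 1.40 to 3.89 times the control median over the 6 libraries and *Hoxd1* from 1.76 to 2.63 times. The 2 genes of paralogs 2 to 5 with a spread under 3-fold were *Hoxc5*, between 2.07 and 4.08 times, and *Hoxd4*, between 1.29 and 3.67 times, both with the highest value in the other neural spots of section 2. All 39 genes passed the filter on low counts and were tested.

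Of the TALE cofactors, which bind DNA together with Hox proteins, all 9 listed genes were tested. In tumor against other neural spots 2 were lower, *Meis2* (-2.28, adjusted p = 0.0053) and *Meis1* (-1.24, adjusted p = 0.040), and 0 were higher, where 13.8% and 9.14% of all genes were, and the median over the list was -0.72 against 0.02 for all genes. *Meis2* was at 24.9 and 18.9 CPM in tumor, 26.5 and 12.5 CPM in cortex and 142 and 97.7 CPM in other neural spots. In tumor against cortex *Pknox2* (-2.37) and *Meis1* (-1.24) were lower, both at an adjusted p of 0.037 in edgeR's test, and 0 were higher, where 15.2% and 13.3% of all genes were. With the control-gene scaling *Meis1* was not called lower in either comparison, and in tumor against cortex 4 of the 9, *Meis2* among them, were called higher, where 41% of all genes were, and *Pknox2* was called lower.

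Of 14 regulators of *Hox* genes in rhombomeres and by retinoic acid, 3 were higher and 0 lower in tumor against cortex, where 13.3% of all genes were higher, and likewise against other neural spots, where 9.14% were. They were the same 3 genes: *Crabp2*, a carrier of retinoic acid, and the receptors *Rara* and *Rarg*. *Crabp2* was at 87.6 and 96.2 CPM in tumor, 6.37 and 6 CPM in cortex and 4.68 and 8.25 CPM in other neural spots, a log2 difference of 4.39 (adjusted p = 0.0035 in edgeR's test) and 4.03 (adjusted p = 0.0031). *Rarg* was higher by 2.65 and 2.93 and *Rara* by 1.67 and 1.90. The tumors were not alike over the whole list. *Crabp1* was at 1083 CPM in the tumor of section 1 and at 0 CPM in that of section 2, and *Rarb* at 4.84 and 50.1 CPM. The list's median log2 difference was 0.48 against cortex and 0.91 against other neural spots, and that of all genes -0.13 and 0.02. With the control-gene scaling 6 of the 14 were called higher against cortex, where 41% of all genes were, and 4 against other neural spots, where 14.7% were.

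Polycomb proteins keep *Hox* genes silent and trithorax proteins keep them active. Of 11 Polycomb genes tested, *Bmi1* not being on the panel, 3 were higher and 0 lower in tumor in both comparisons: *Ezh2*, *Eed* and *Rnf2*. Of all genes, 13.3% were higher against cortex and 9.14% against other neural spots. *Ezh2*, the methyltransferase of the complex, was at 81.2 and 90.4 CPM in tumor, 62.7 and 38.4 CPM in cortex and 38.7 and 39.5 CPM in other neural spots. Of 9 trithorax and demethylase genes, *Wdr5* was higher in both comparisons (1.47 and 1.23) and 0 were lower. With the control-gene scaling 7 of the 11 Polycomb genes and 7 of the 9 trithorax and demethylase genes were called higher against cortex, where 41% of all genes were. Against other neural spots the counts stayed at 3 and 1, where 14.7% were.

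A further list held 10 homeobox genes used in the forebrain, midbrain or cerebellum, some of which, such as *Barhl1*, *Lhx1* and *Lhx5*, are also used behind the front limit of the *Hox* genes. In tumor 7 of the 10 were lower than in cortex, where 15.2% of all genes were, 4 were lower than in other neural spots, where 13.8% were, and 0 were higher, although *Otx1* was called higher in both comparisons with the control-gene scaling. *En2*, a gene of the midbrain and cerebellum, was at 3.02 and 2.37 CPM in tumor, 40.6 and 54.9 CPM in cortex and 10.3 and 11.7 CPM in other neural spots. *Lhx5* was at 1.79 and 1.93 CPM, 31.5 and 41.2 CPM and 14.1 and 11.2 CPM. For other neural spots against cortex, 0 genes of any of these lists were called in edgeR's test (0% of all genes).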

How the data were processed

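UMIs were deposited as counts per gene and spot, made by the authors with Space Ranger 2.1.1 on mm10 from FFPE sections of 5 µm (Visium CytAssist, mouse probe panel). Spots with under 500 UMIs or 10 genes were left out (91 of 3406 in section 1, 18 of 4017 in section 2). The sections shared 3096 spot barcodes, which are array positions. Tumor spots had *Krt7*, *Krt8* and *Epcam* summing to 2000 CPM or *Col1a1*, *Col1a2* and *Col3a1* to 5000 CPM, in patches of 20 spots or more. Counts were summed per region and section and fitted in edgeR 4.0.16 (R 4.3.3) with TMM factors and the section as block, since regions of a section share a mouse, on 19083 genes with 2 residual degrees of freedom. Since the section is a block, p-values measure how far the differences between regions vary from section to section, with the spread partly shared across genes. DESeq2 1.42.0 and other filters, scalings and region limits were alternatives, and the script was tested on simulated data. Log2 differences within a section used a pseudocount of 0.5 CPM. Poisson intervals cover counting error only. The *Hox* genes were described by level and called ones with statistics, and of other lists up to 4 genes of lowest adjusted p were named. *Crabp1* and *Rarb* were added because they differed between the tumors. The members and lists were chosen with earlier results of these data known. Values of some genes are not reported here.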

Additional observations from a re-analysis of the deposited data

How the results depend on the processing

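In tumor against cortex, *Hox* genes called higher stayed within 1.5 times of 3 in every alternative but the control-gene scaling, where they were 6. Those called lower, 2, were 1 with DESeq2 and with stricter neural limits, 0 without the replicate block and with the control-gene scaling, 8 with library size only and with the spots of no region fitted as one more region, and 7 without granule spots. In tumor against other neural spots the 1 called higher became 2 with DESeq2 and with that added region, 3 with the control-gene scaling and 0 with library size only. In other neural spots against cortex the count called higher was 2 with DESeq2 and 7 with the control-gene scaling. *Hoxb5* in that comparison was 1.56 without replicate 1 and turned to -0.05 without replicate 2. *Hoxb4* lost its calls where given above. Without the replicate block *Hoxa13* (-1.16, adjusted p = 0.16) and *Hoxc12* (-1.25, adjusted p = 0.12) lost theirs, and the block changed no other *Hox* call. The cause was not tested. Levels of paralogs 2 to 5 ranged from 5.14 to 8.25 in tumor, 1.51 to 1.58 in cortex and 4.26 to 7.50 in other neural spots when either section was left out, and those of paralogs 6 to 13 from 1.96 to 2.45, 1.61 to 1.72 and 1.62 to 1.68. These are the values of the single sections already given above, so they are no further check. Of 225 gene values under alternatives, 205 stayed the same, 10 lost and 9 gained a call, and 1 reversed. Staying the same meant the same direction and the same status, called or not called. For other neural spots against cortex that status was not called. Values with a section left out had no test and were judged by direction alone. With 2 sections, a gene at a few CPM in cortex rests on under 100 UMIs, and leaving out a section allows no test.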
